A study of Mus musculus with 17 samples.

Results

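The genes described here are 43 components of the TSC and mTOR signalling pathway, chosen as a list of symbols by their known place in the pathway, with earlier results of these data known, out of 23284 genes counted in mouse cortex. They comprise the TSC complex, the subunits of both mTOR complexes, the RHEB GTPases, substrates and cap-binding factors, the insulin and IGF receptors with PI3K and AKT, the stress-induced inhibitors of the DDIT4 and sestrin families, the Rag GTPases with GATOR1, and AMPK with LKB1. All 43 symbols were present in the count table, and all 43 passed the filter on low counts in every comparison.

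Poly-A RNA from the upper part of somatosensory and parietal cortex was sequenced in 17 libraries from mice on a Bl6/129S mixed background. The mutants are labelled mGfapCre+:Tsc1CKO, a conditional knockout of Tsc1 with Cre driven by the mouse Gfap promoter, and the controls are labelled as mGFAPCre+ littermates, so both genotypes carry the Cre. At 4 weeks of age there were 5 Tsc1CKO and 5 control libraries, and at 15 weeks 4 Tsc1CKO and 3 controls. Gfap-driven Cre acts in a part of the cells of a tissue, whereas RNA was taken from the whole tissue, which holds neurons, glia and vessels. In such bulk samples, more or fewer cells of a type and more or less RNA per cell cannot be told apart. The labels do not say which exons of Tsc1 are removed, nor whether each library is a separate animal, and the p-values therefore reflect library-to-library spread, which may be technical.

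Hamartin (Tsc1), tuberin (Tsc2) and TBC1D7 form a complex that switches off the small GTPase RHEB, the direct activator of mTOR complex 1. Insulin and IGF signalling through PI3K and AKT inactivates the TSC complex, while energy stress through LKB1 and AMPK, and hypoxia or other stress through DDIT4 (REDD1), activate it. Amino acids act through the Rag GTPases at the lysosome, where GATOR1 and, upstream of it, the sestrins restrain mTOR complex 1. Loss of Tsc1 or Tsc2 causes tuberous sclerosis, and the pathway is regulated largely by phosphorylation and localisation of its proteins, which RNA counts do not measure.

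Ddit4, Sesn2 and Ddit4l were the pathway genes past the genotype test at 15 weeks, and Sesn3 had the smallest p at 4 weeks without passing. Their promoters are given to show how the upstream sequences of these 4 stress-induced inhibitors differ. Each line holds the 250 bases before the annotated start in RefSeq on GRCm38.p6, 5′ to 3′ on the strand of the gene, with capitals at every match to CCAAT on either strand (on the opposite strand, ATTGG), the core of the element bound by NF-Y. They lie at chr10:59951771-59952020 (minus strand) for Ddit4, chr4:132510457-132510706 (minus strand) for Sesn2, chr9:14276051-14276300 (plus strand) for Sesn3 and chr3:137623422-137623671 (plus strand) for Ddit4l.
Ddit4: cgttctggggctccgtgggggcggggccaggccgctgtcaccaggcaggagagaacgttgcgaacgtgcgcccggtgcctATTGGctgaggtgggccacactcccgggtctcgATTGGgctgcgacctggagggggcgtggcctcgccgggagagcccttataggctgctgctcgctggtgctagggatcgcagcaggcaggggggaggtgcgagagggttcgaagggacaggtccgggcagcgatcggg
Sesn2: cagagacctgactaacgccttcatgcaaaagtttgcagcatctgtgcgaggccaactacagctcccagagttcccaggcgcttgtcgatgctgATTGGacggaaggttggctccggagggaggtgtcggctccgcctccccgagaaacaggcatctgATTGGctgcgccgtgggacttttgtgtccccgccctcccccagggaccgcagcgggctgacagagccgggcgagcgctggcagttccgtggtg
Sesn3: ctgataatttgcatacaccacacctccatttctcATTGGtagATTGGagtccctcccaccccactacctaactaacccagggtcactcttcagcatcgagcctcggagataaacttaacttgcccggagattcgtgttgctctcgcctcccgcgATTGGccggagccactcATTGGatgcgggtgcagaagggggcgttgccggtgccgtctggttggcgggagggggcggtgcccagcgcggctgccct
Ddit4l: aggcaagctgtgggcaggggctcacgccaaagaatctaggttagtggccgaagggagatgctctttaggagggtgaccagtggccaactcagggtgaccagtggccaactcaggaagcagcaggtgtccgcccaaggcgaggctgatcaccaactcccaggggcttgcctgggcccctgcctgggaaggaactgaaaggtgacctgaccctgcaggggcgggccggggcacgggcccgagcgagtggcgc
The Ddit4 promoter holds 2 matches, the Sesn2 promoter 2, the Sesn3 promoter 4 and the Ddit4l promoter 0. CCAAT occurs in 33.8% of all 32851 promoter windows of this length. Counted per gene, it occurs in 40% of the genes tested at 15 weeks that have a window. It was found in 13 of the 38 pathway genes that have one, so its presence is common. The 13 are Ddit4, Eif4e, Irs2, Mtor, Pdpk1, Pik3r1, Rictor, Rragb, Rragc, Sesn1, Sesn2, Sesn3 and Stk11. TATAAA, TGATGNAA (an ATF4 and C/EBP composite element), TGACGTCA (the CRE) and GTAAACA (a FOXO element), searched on both strands, had no match in these 4 windows. CACGTG, the E-box bound by TFEB and MYC among others, also had no match in these 4, while it was found in 8 of the 38 pathway promoters (Eif4e, Eif4g1, Irs1, Irs2, Rheb, Rragb, Rragc and Tbc1d7), against 6.02% of all windows and 9.69% of the genes tested at 15 weeks that have a window.

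The 4-week libraries held 13492007 to 24583430 counted reads each, and the 15-week libraries 16680450 to 20508464. Values are given as CPM, each library's counts brought to a common total after scaling for composition (TMM). Along the first principal component of the 15-week libraries (61.8% of variance), Tsc1CKO replicate 4 lay at 23.7, near the controls at 35.7 to 43.9, and the other mutants at -32.6 to -66.5. At 4 weeks (24.7%), Tsc1CKO replicate 2 lay at 8.73, within the controls' 4.72 to 32.8, and the other mutants at -9.33 to -27.1. Summed over 10 astrocyte markers, 4-week levels were 10346 to 14834 CPM in Tsc1CKO and 6657 to 11103 CPM in controls, and 15-week levels were 11854 to 14117 CPM in Tsc1CKO and 6987 to 7937 CPM in controls. The 4-week control at 6657 CPM was replicate 4, and the other controls of that age were at 10500 CPM or more. Of these 10 markers, 7 rose at 15 weeks and 0 passed the test at 4 weeks. Gfap made up a large part of the 15-week difference in the sum, at 995 to 5052 CPM in Tsc1CKO and 104 to 134 CPM in controls. Slc1a2, Gja1 and Fgfr3 overlapped the controls at 15 weeks. No astrocyte marker was at 0 in any group. The sum of 7 excitatory neuron markers at 15 weeks was 5995 to 7785 CPM in Tsc1CKO and 7842 to 9976 CPM in controls, with 0 of 7 past the test. Camk2a made up a large part of that sum, with medians of 3048 CPM in Tsc1CKO and 4921 CPM in controls. Of the 7 log2 fold changes 6 were negative. Slc17a7 had the higher median in Tsc1CKO, 1846 against 1346 CPM. The sum of 7 microglia markers was 431 to 759 CPM against 304 to 362 CPM, with 1 of 7 past the test. The part of these differences in the results below was not tested.

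Within the pathway, levels per kilobase of exon spanned a wide range, and the order is given for the 4-week controls. The Rag GTPase Rraga, which relays amino acid signals at the lysosome, was highest at 67.4 CPM per kb, followed by Rragd at 42.9, Akt1 at 34.2 and the PI3K regulatory subunit Pik3r1 at 31.5 CPM per kb. The mTOR kinase itself stood at 9.67 CPM per kb, Rictor at 9.13, Rptor at 5.17, Tsc2 at 15.7 and Tsc1 at 7.82 CPM per kb. The lowest were Irs1 at 2.53, Sesn2 at 2.28 and the mTOR-binding inhibitor Deptor at 1.01 CPM per kb. The least counted gene in any library was the translational repressor Eif4ebp1, with 34 to 82 reads.

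The first question was whether transcripts of the TSC complex differed in the mutants. The targeted gene Tsc1 (mm9 chromosome 2, 28496748 to 28546687) was counted at 99.3, 98.5, 94.1, 89.6 and 80.2 CPM in the 4-week Tsc1CKO libraries and at 84.5, 91.2, 89, 98.3 and 99.4 CPM in their controls. At 15 weeks it was 98.1, 82.1, 131 and 105 CPM in Tsc1CKO and 114, 118 and 133 CPM in controls. The groups overlapped at both ages, with 3 of the 4 mutants below every control at 15 weeks. The log2 fold changes were -0.00 ± 0.07 (SE, edgeR adjusted p = 0.983) and -0.20 ± 0.16 (adjusted p = 0.449), with an interval of 2 SE each side from -0.53 to 0.12 at 15 weeks. Since the counts cover the whole gene, they do not check the genotype labels. Tsc2 (chromosome 17, 24732882 to 24769574), the GTPase-activating partner, had log2 fold changes of 0.13 ± 0.07 (adjusted p = 0.301) at 4 weeks and 0.10 ± 0.13 (adjusted p = 0.654) at 15 weeks. Some 9.11% of its exonic bases overlap exons of Pkd1 on the other strand. Tbc1d7, the stabilising subunit, stood at 12.6 ± 1.09 and 11.6 ± 1.52 CPM (SD, n = 5 each) in 4-week controls and Tsc1CKO, and at 12.3 ± 1.13 (SD, n = 3) and 13 ± 1.5 CPM (SD, n = 4) at 15 weeks.

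At 15 weeks the differences that passed the test lay among the stress-induced inhibitors. Ddit4 and Sesn2 rose about as much in the mutants, and Ddit4l, the paralog of Ddit4, fell. Of the 43 pathway genes, 3 passed an adjusted p of 0.05, or 6.98%, and percent called over all 15015 genes tested was 3.78% (3.36% higher, 0.42% lower). At an unadjusted p under 0.05, 7 of the 43 (16.3%) passed, against 25.3% of all genes. The median log2 fold change of the 43 was -0.07, and that of all genes 0.02. These 3 genes belong to the 5 stress-induced inhibitors, and none of the other 38 pathway genes passed.

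Ddit4 (REDD1, chromosome 10, 59412423 to 59414518), which is induced by hypoxia, glucocorticoids and energy stress and activates the TSC complex, was at 64.3, 55.8, 75.3 and 63.7 CPM in the 15-week Tsc1CKO libraries and at 30.1, 27 and 42.2 CPM in controls. All 4 mutants were above the highest control. The log2 fold change was 0.99 ± 0.18 (SE, edgeR adjusted p = 0.0279). Ddit4l (REDD2, chromosome 3, 137284576 to 137291297), which also inhibits mTOR complex 1, was at 15.3, 12.6, 16.2 and 22.8 CPM in Tsc1CKO and at 42.5, 41.9 and 33.9 CPM in controls. All 4 mutants lay below the lowest control, with replicate 4 nearest to it. The log2 fold change was -1.21 ± 0.20 (adjusted p = 0.0219). Per kilobase, Ddit4 made up 58.7 ± 8.4% (SD, n = 3) of the summed level of both paralogs in 15-week controls and 87 ± 2.82% (SD, n = 4) in Tsc1CKO. At 4 weeks its share was 53.1 ± 13.7% and 61.2 ± 8.94% (SD, n = 5 each), with overlapping groups.

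Sestrins are stress-responsive proteins that bind GATOR2 and keep mTOR complex 1 off, and Sesn2 is in addition a leucine sensor. Sesn2 (chromosome 4, 132047947 to 132066416) was at 22.2, 15.9, 24.3 and 14.6 CPM in the 15-week mutants and at 9.77, 9.38 and 10.9 CPM in controls. Its groups did not overlap, and the log2 fold change was 0.96 ± 0.20 (SE, adjusted p = 0.0391). Sesn3 (chromosome 9, 14080745 to 14130582), a FOXO target, was at 83.4, 57.7, 94.5 and 115 CPM in mutants and at 52.8, 59.6 and 62 CPM in controls. Replicate 2 was the only mutant within the control range. The log2 fold change of 0.62 ± 0.22 missed the threshold (adjusted p = 0.126), and without that library it was 0.77 ± 0.14 (adjusted p = 0.028). That library was picked by its value in this gene, so the fit without it is no separate support. Over 13 alternatives Sesn3 was called in 3, with log2 fold changes of 0.42 to 0.77 and adjusted p up to 0.315. Sesn1, a p53 target, had 0.21 ± 0.12 (adjusted p = 0.315).

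The 3 calls at 15 weeks depend on which libraries are in the fit. Leaving out each of the 7 in turn gave between 0 and 8 pathway genes: 0 without Tsc1CKO replicate 1 or control replicate 1 or 2, 1 without Tsc1CKO replicate 3 (Ddit4l) or control replicate 3 (Ddit4), 4 without Tsc1CKO replicate 2 and 8 without Tsc1CKO replicate 4, with 23.2% of all genes called in the last case. The main fit called 3.78% of all genes. Shares for the other fits are not given here, so their counts are not read as a result about the pathway genes. DESeq2 called 4, adding Pdpk1, where it called 14.2% of all genes, and limma voom with quality weights 14, where it called 34.5%. Over all 13 alternatives the log2 fold changes kept their direction and ranged from 0.88 to 1.20 for Ddit4, from 0.83 to 1.11 for Sesn2 and from -1.41 to -1.11 for Ddit4l.

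**Figure D1:**
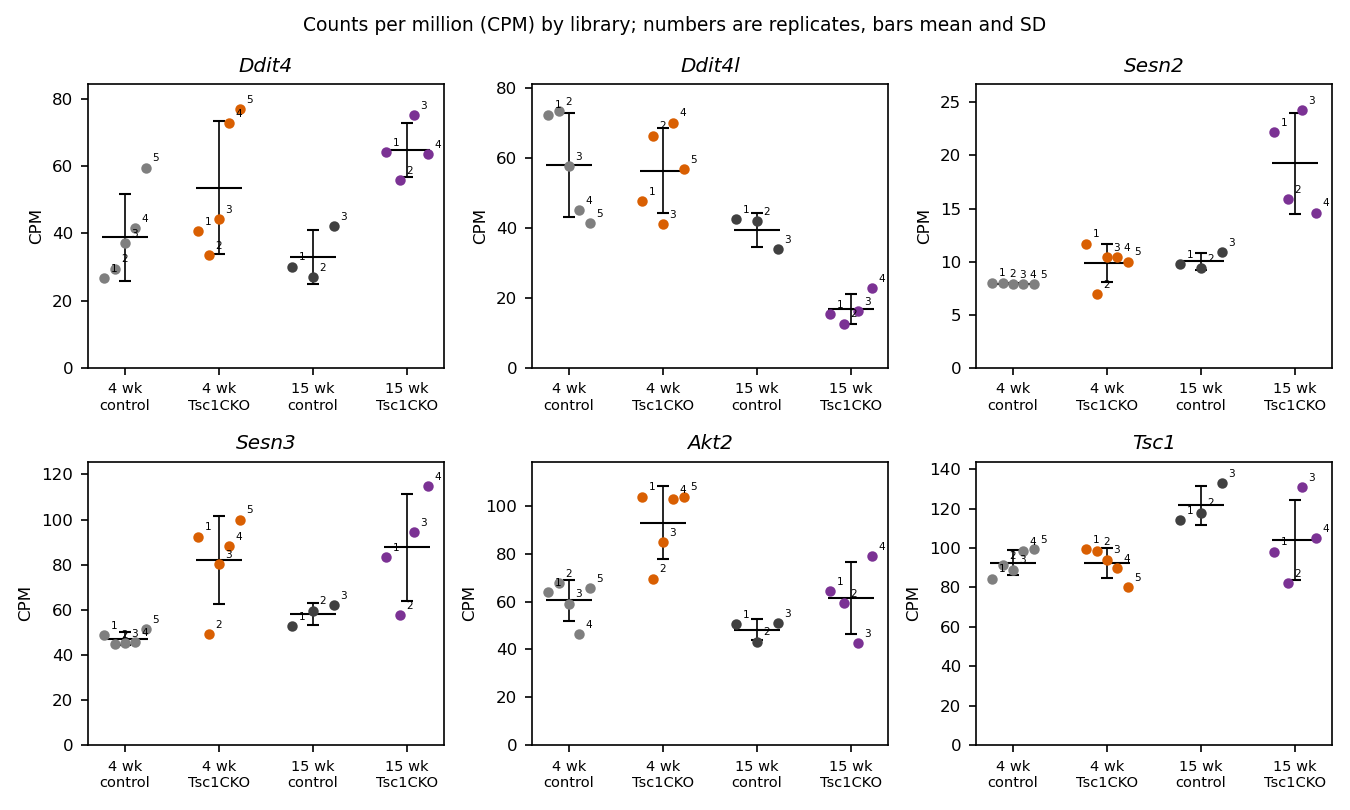
CPM per library (vertical axes, from 0) of Ddit4, Ddit4l, Sesn2, Sesn3, Akt2 and Tsc1 in the 4 groups (horizontal axes), 1 point per library with its replicate number, a line at the group mean and bars of 1 SD. At 15 weeks all 4 Tsc1CKO points of Ddit4 and Sesn2 lie above the 3 controls and those of Ddit4l lie below, while Tsc1 overlaps at both ages.

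Outside the stress-induced inhibitors, no gene passed the test at 15 weeks. Of the 10 receptor, adaptor, PI3K and AKT genes, 8 had negative log2 fold changes, with a median of -0.26. The insulin receptor substrate Irs1 was at 20.1, 17.5, 25.7 and 42.2 CPM in Tsc1CKO and at 33, 40.3 and 43.2 CPM in controls (log2 fold change -0.53 ± 0.29, adjusted p = 0.274). The IGF receptor Igf1r was at 59.4, 45.2, 92.7 and 120 CPM against 94.9, 117 and 126 CPM (-0.48 ± 0.31, adjusted p = 0.353). In both genes Tsc1CKO replicate 4 was within the controls and the other 3 mutants were below them. About 30.9% of the exonic bases of Irs1 overlap Gm9747 on the other strand, whose reads could not be separated.

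Pik3ca, the catalytic subunit of PI3K alpha, was at 85.6, 68.3, 83.9 and 108 CPM in 15-week Tsc1CKO and at 110, 122 and 127 CPM in controls. Pdpk1, the kinase that phosphorylates the activation loop of AKT, was at 187, 163, 182 and 205 CPM against 235, 228 and 240 CPM. In both genes every mutant was below every control. Their log2 fold changes were -0.44 ± 0.16 (adjusted p = 0.133) and -0.32 ± 0.12 (adjusted p = 0.13). Akt1 also lay below every control (-0.18 ± 0.11, adjusted p = 0.313), whereas Akt2 had 0.37 ± 0.20 (adjusted p = 0.267). In all, 9 of the 43 genes were lower than every control in each mutant, and 3 were higher, while 13.3% and 11.2% of all genes were so.

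None of the 7 mTOR complex genes passed at 15 weeks, and 5 were negative. The kinase Mtor was at 124, 82.9, 157 and 136 CPM in mutants and at 150, 150 and 151 CPM in controls (-0.24 ± 0.20, adjusted p = 0.45). Rictor, the defining subunit of mTOR complex 2, was at 71.3, 55.3, 94.3 and 87.8 CPM against 94.1, 110 and 90.3 CPM (-0.32 ± 0.19, adjusted p = 0.31). The lowest library for both was Tsc1CKO replicate 2, whose ribosomal Rn45s share of 10.7% of counts was the highest of the 17 libraries. The part of that share in its values was not tested. Rptor, which recruits substrates to mTOR complex 1, was at 80.1, 76.1, 89.6 and 86.7 CPM in mutants, all below the controls' 93.6, 96.2 and 102 CPM (-0.21 ± 0.11, adjusted p = 0.269).

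Among RHEB, the substrates, the Rag and GATOR1 genes and the energy sensors, none passed at 15 weeks. Rheb had a log2 fold change of 0.14 ± 0.23 and its relative Rhebl1 0.07 ± 0.18. The smallest p belonged to Rps6kb2, encoding S6 kinase 2, at 18.7, 21.5, 22.6 and 20.3 CPM in mutants and 17.4, 18.5 and 15.9 CPM in controls (0.29 ± 0.12, adjusted p = 0.181). Its groups did not overlap. Rraga had 0.30 ± 0.16 (adjusted p = 0.255), and Depdc5, the GATOR1 subunit mutated in focal epilepsies, was lower in each mutant than in every control (-0.33 ± 0.16, adjusted p = 0.245). Stk11, encoding LKB1, had -0.33 ± 0.15 (adjusted p = 0.198), and the AMPK catalytic genes Prkaa1 and Prkaa2 had 0.16 ± 0.12 and -0.08 ± 0.17.

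**Figure D2:**
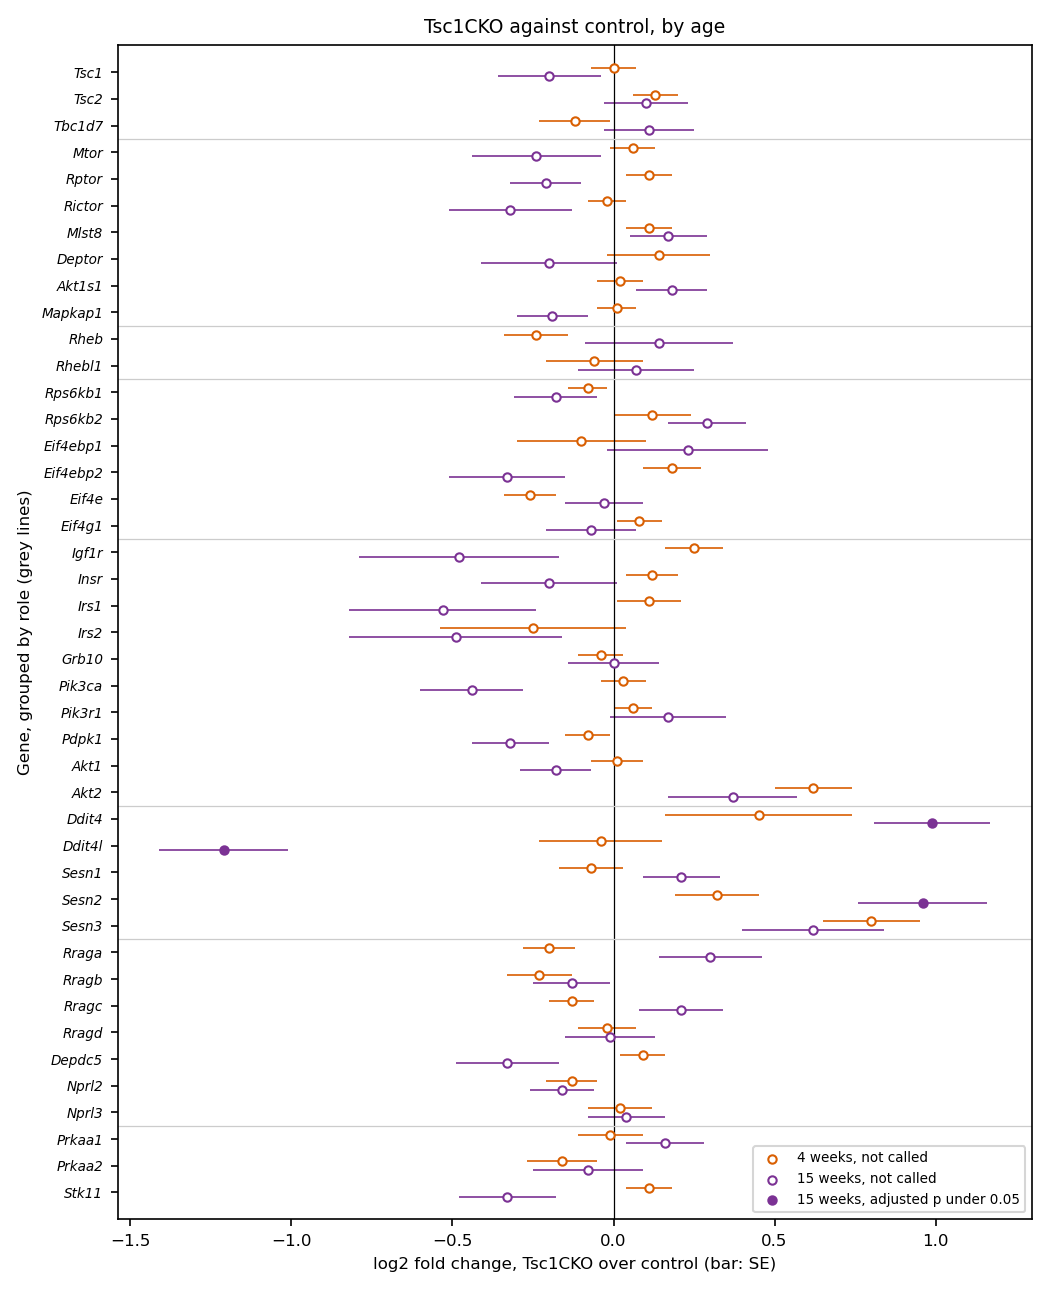
Log2 fold change of Tsc1CKO against control (horizontal axis) for each of the 43 genes (rows, grouped by role) at 4 weeks (orange) and 15 weeks (purple), with bars of 1 SE each side and filled points for an adjusted p under 0.05. Filled points are Ddit4 (0.99), Sesn2 (0.96) and Ddit4l (-1.21), all at 15 weeks.

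At 4 weeks none of the 43 genes passed in the mutants. Percent called over all 14754 genes was 0.0407% (6 genes). At an unadjusted p under 0.05, 8 of the 43 (18.6%) and 18.8% of all genes passed. DESeq2 called 2 of the 43, Akt2 and Sesn3, and 4.07% of all genes, and limma voom with quality weights called 0.

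Those 2 genes had the largest log2 fold changes. Sesn3 was at 92.4, 49.3, 80.4, 88.3 and 100 CPM in the 4-week Tsc1CKO libraries and at 48.7, 44.9, 45.3, 45.5 and 51.5 CPM in controls. Replicate 2 alone among the mutants was within the control range. The log2 fold change was 0.80 ± 0.15 (SE, edgeR adjusted p = 0.0583). Akt2 (chromosome 7, 28376571 to 28425845), the AKT isoform best known for its role in insulin-stimulated glucose uptake, was at 104, 69.6, 85, 103 and 104 CPM in mutants and at 64, 67.9, 59.2, 46.3 and 65.6 CPM in controls. Every mutant was above every control, with replicate 2 closest, and 1.84% of all genes were so. The log2 fold change was 0.62 ± 0.12 (adjusted p = 0.0607). Per kilobase, Akt2 made up 27.3 ± 1.94% of summed Akt1 and Akt2 in Tsc1CKO and 19.9 ± 2.64% in controls (SD, n = 5 each), and Sesn3 54.9 ± 5.63% of the sestrins against 41.1 ± 2.08%.

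Next by p at 4 weeks were Eif4e, the cap-binding translation factor, and Igf1r. Eif4e was at 63, 80.7, 68.1, 72.2 and 72.2 CPM in mutants and at 98.8, 82.2, 80.4, 84.9 and 79.2 CPM in controls. Only replicate 2 of the mutants was within the controls. Its log2 fold change was -0.26 ± 0.08 (adjusted p = 0.123), and that of Igf1r was 0.25 ± 0.09 (adjusted p = 0.149). Sesn2 was at 11.7, 6.93, 10.4, 10.4 and 10 CPM in mutants and at 7.86 to 8.01 CPM in controls, so that 4 mutants were above all controls and replicate 2 below (0.32 ± 0.13, adjusted p = 0.199). Ddit4 had 0.45 ± 0.29 (adjusted p = 0.445) and Ddit4l -0.04 ± 0.19 (adjusted p = 0.928), both with overlapping groups.

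In Sesn3, Akt2, Eif4e and Sesn2 the mutant library nearest the control mean was replicate 2. Without it, 4 of the 43 genes passed, Akt2 (0.70 ± 0.11, adjusted p = 0.00256), Sesn3 (0.93 ± 0.08, adjusted p = 2.79e-05) and Sesn2 higher and Eif4e (-0.31 ± 0.08, adjusted p = 0.0464) lower, while 3.99% of all genes did. Leaving out any other library at 4 weeks gave 0. Replicate 2 was singled out by its values in these same genes, and leaving it out necessarily widens their differences. The fit without replicate 2 is therefore no separate support for them. This library also held the most pituitary hormone transcripts at 4 weeks, 493 CPM summed over 6 genes. Tsc1CKO replicates 5 and 1 had 331 and 209 CPM, replicates 4 and 3 had 18.4 and 3.89 CPM, and controls had 1.94 to 119 CPM. The part of these transcripts in the values above was not tested. Over all 4-week libraries, summed endothelial markers were at 247 to 293 CPM in Tsc1CKO and 135 to 244 CPM in controls, with all 7 log2 fold changes positive, and oligodendrocyte precursor markers at 277 to 412 CPM against 209 to 298 CPM, with all 6 positive. Control replicate 4 alone set the low ends, and the other controls were at 186 CPM or more and 255 CPM or more. It was also the lowest control for Akt2, at 46.3 CPM. All 10 astrocyte markers were positive too, with sums of 10346 to 14834 CPM against 6657 to 11103 CPM. Replicate 2 had the lowest astrocyte sum of the mutants. All 6 inhibitory neuron markers were negative, at 599 to 721 CPM against 736 to 799 CPM. None of these markers passed the test, and their part in the differences of Akt2 and Sesn3 was not tested.

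**Figure D3:**
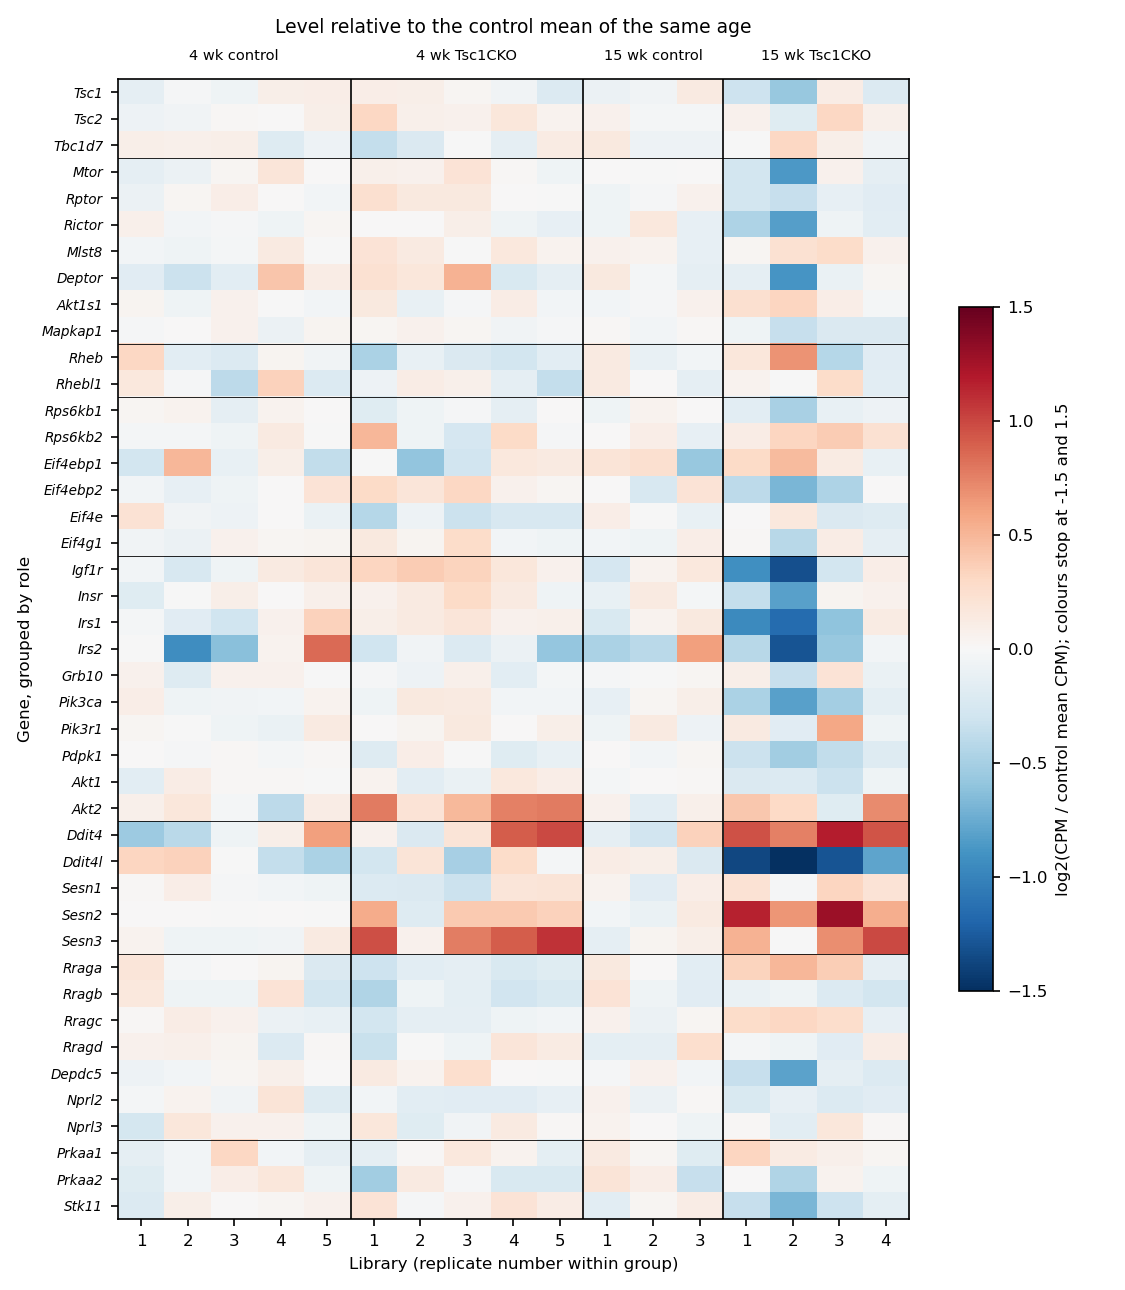
Log2 ratio of each library to the control mean of its age (colour, with the ends of the scale also standing for values beyond them) for the 43 genes (rows, by role) in the 17 libraries (columns), grouped by age and genotype. The 15-week Tsc1CKO libraries are above the controls in Ddit4 and Sesn2 and below them in Ddit4l, and in that group replicate 2 has the lowest values of Mtor (-0.86) and Igf1r (-1.32).

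Whether the genotype difference itself differed between ages was tested over all 17 libraries. None of the 43 genes passed, and percent called over all 15492 genes was 0.213%. Below an unadjusted p of 0.05, 13 of the 43 (30.2%) and 25.1% of all genes passed. DESeq2 called 4 genes (Ddit4l, Pik3ca, Rptor and Stk11) where it called 6.89% of all, and limma voom 13 where it called 25.5%. The smallest p was that of Ddit4l, whose genotype effect dropped by 1.20 on the log2 scale relative to 4 weeks (SE 0.29, edgeR adjusted p = 0.0659). Pik3ca had -0.50 ± 0.15 (adjusted p = 0.0836), Stk11 -0.47 ± 0.15 (adjusted p = 0.0853) and Rptor -0.34 ± 0.11 (adjusted p = 0.0985). Without 15-week Tsc1CKO replicate 4, 12 of the 43 genes passed (3 with a positive difference, 9 with a negative one), and 22.6% of all genes did. Ddit4 had 0.51 ± 0.37 (adjusted p = 0.39) and Sesn2 0.62 ± 0.23 (adjusted p = 0.121), so in this fit their calls at 15 but not at 4 weeks are not shown to be a difference between ages. The difference of Sesn2 passed under voom (0.80, adjusted p = 0.00614), with the replicate block (0.73, adjusted p = 0.0294) and without 15-week Tsc1CKO replicate 4 (0.73, adjusted p = 0.0209). That of Ddit4 passed with the replicate block (0.55, adjusted p = 0.038). At 15 weeks no control shares the number of Tsc1CKO replicate 4, so the block takes that library out of the estimate. The fits with the block and without replicate 4 are therefore not separate supports. The genotype effects had the same sign at both ages in 22 of the 43 genes (51.2%) and in 54.2% of 14578 genes tested at both.

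The authors' deposited table labelled for 4 weeks lists 594 genes, among them Akt2 (log2 fold change 0.61, adjusted p = 0.000897) and Sesn3 (0.79, adjusted p = 0.000139). Their deposited table labelled for 15 weeks lists 1062 genes and includes 4 pathway genes, Ddit4l (-1.19, adjusted p = 0.00717), Pik3ca (-0.50, adjusted p = 0.037), Stk11 (-0.47, adjusted p = 0.0377) and Rptor (-0.34, adjusted p = 0.0425). In 1061 of these 1062 genes the fold change of that deposited table equalled, within 0.001, the difference of the genotype effects between ages as refitted with DESeq2, not the genotype effect at 15 weeks. Ddit4 and Sesn2 are not among the genes of the authors' deposited table for 15 weeks.

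In control mice, core pathway genes differed between 15 and 4 weeks. The mTOR kinase, its partners Rptor, Rictor, Deptor and Mapkap1, and both Tsc1 and Tsc2 rose, while Rheb, Rps6kb2, Akt2 and Sesn1 fell. In all, 19 of the 43 genes rose and 4 fell, or 53.5%, and percent called over all 15007 genes was 41.8% (22.4% higher, 19.3% lower). Unadjusted p-values were under 0.05 in 28 of the 43 (65.1%) and in 50% of all genes. The median log2 difference of the 43 was 0.19, and that of all genes -0.00. The labels give no sequencing batch, and all libraries of an age could share one, so age and batch cannot be told apart. Markers of several cell types moved with age in the same libraries. Summed inhibitory neuron markers were at 1019 to 1060 CPM at 15 weeks and 736 to 799 CPM at 4 weeks (4 of 6 rose, 2 fell), and oligodendrocyte markers at 2318 to 3548 CPM against 3588 to 4510 CPM (3 of 6 fell). Of the astrocyte markers 4 of 10 fell (6987 to 7937 CPM against 6657 to 11103 CPM), and of the excitatory neuron markers 4 of 7 rose (7842 to 9976 CPM against 8222 to 9884 CPM). Their part was not tested. With all 17 libraries in the fit, 14 of the 43 genes passed (12 higher, 2 lower), where 30.7% of all genes did. Rictor, Mapkap1, Tsc2, Rheb, Akt2, Akt1, Igf1r, Eif4ebp2, Sesn2 and Sesn3 were not among them. Over 14 alternatives, Rictor was called in 5, Mapkap1 in 5, Tsc2 in 3, Akt2 in 6 and Rheb in 13. Sesn2 was called in 8, Eif4ebp2 in 8 and Akt1 in 9, while Mtor, Rptor, Deptor, Tsc1, Rps6kb2 and Sesn1 were called in all 14.

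Mtor was at 150, 150 and 151 CPM in the 15-week controls and at 88.5, 92.1, 99.6, 111 and 97.9 CPM in the 4-week controls. The log2 difference was 0.63 ± 0.08 (SE, edgeR adjusted p = 7.71e-05), with groups that did not overlap. In all, 17 of the 43 genes were higher in every older control than in every younger one, and 3 lower. Over all genes 21.9% and 19.1% were so. Rptor had 0.49 ± 0.07, Deptor 0.86 ± 0.15, Rictor 0.21 ± 0.08 and Mapkap1 0.20 ± 0.07, and Mlst8 and Akt1s1 did not pass (0.18 ± 0.09 and -0.09 ± 0.07). Tsc1 was at 114 to 133 CPM at 15 weeks and at 84.5 to 99.4 CPM at 4 weeks (0.40 ± 0.08, adjusted p = 0.00163). Tsc2 rose by less (0.19 ± 0.07, adjusted p = 0.0421).

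Rheb was at 107, 90.3 and 94.8 CPM at 15 weeks and at 115 to 164 CPM at 4 weeks (-0.43 ± 0.11, adjusted p = 0.00828). Every older control was below every younger one, as in 19.1% of all genes. Rps6kb2 was at 15.9 to 18.5 CPM against 26.7 to 30.4 CPM (-0.68 ± 0.09, adjusted p = 0.000114). Its paralog Rps6kb1 had -0.13 ± 0.07 and did not pass, and per kilobase the share of Rps6kb2 in both S6 kinases was 49.2 ± 1.82% (SD, n = 3) at 15 weeks and 58.6 ± 1.32% (SD, n = 5) at 4 weeks. The scaffold Eif4g1 (0.57 ± 0.07, adjusted p = 7.48e-05) and the repressor Eif4ebp2 (0.33 ± 0.11, adjusted p = 0.0318) rose, and Eif4e did not pass (-0.13 ± 0.09).

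Of the 10 receptor, adaptor, PI3K and AKT genes, 6 rose and 1 fell. Irs1 (0.75 ± 0.14) and the adaptor Grb10, an inhibitor of insulin signalling that mTOR complex 1 phosphorylates (0.61 ± 0.08, adjusted p = 0.00011), had the largest rises. Igf1r (0.46 ± 0.11), Pik3ca (0.38 ± 0.07), Pdpk1 (0.32 ± 0.06) and Akt1 (0.22 ± 0.07) also rose, and Akt2 fell (-0.32 ± 0.12, adjusted p = 0.0463). Irs2 was at 41.4, 43 and 87.2 CPM at 15 weeks and at 12.1 to 41.6 CPM at 4 weeks, and its difference of 1.30 ± 0.45 missed the threshold (adjusted p = 0.0571).

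Among the stress-induced inhibitors, Sesn2 (0.34 ± 0.11) and Sesn3 (0.31 ± 0.08) rose with age and Sesn1 fell (-0.33 ± 0.08). Ddit4 (-0.24 ± 0.28) and Ddit4l (-0.55 ± 0.20, adjusted p = 0.051) did not pass. Of the 7 Rag and GATOR1 genes only Depdc5 passed (0.54 ± 0.07, adjusted p = 8.82e-05), at 79.3 to 85.1 CPM against 53.3 to 59.7 CPM. Prkaa2, the AMPK catalytic subunit that prevails in brain and muscle, rose (0.40 ± 0.12, adjusted p = 0.0158), and Prkaa1 did not pass (0.12 ± 0.11).

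**Figure D4:**
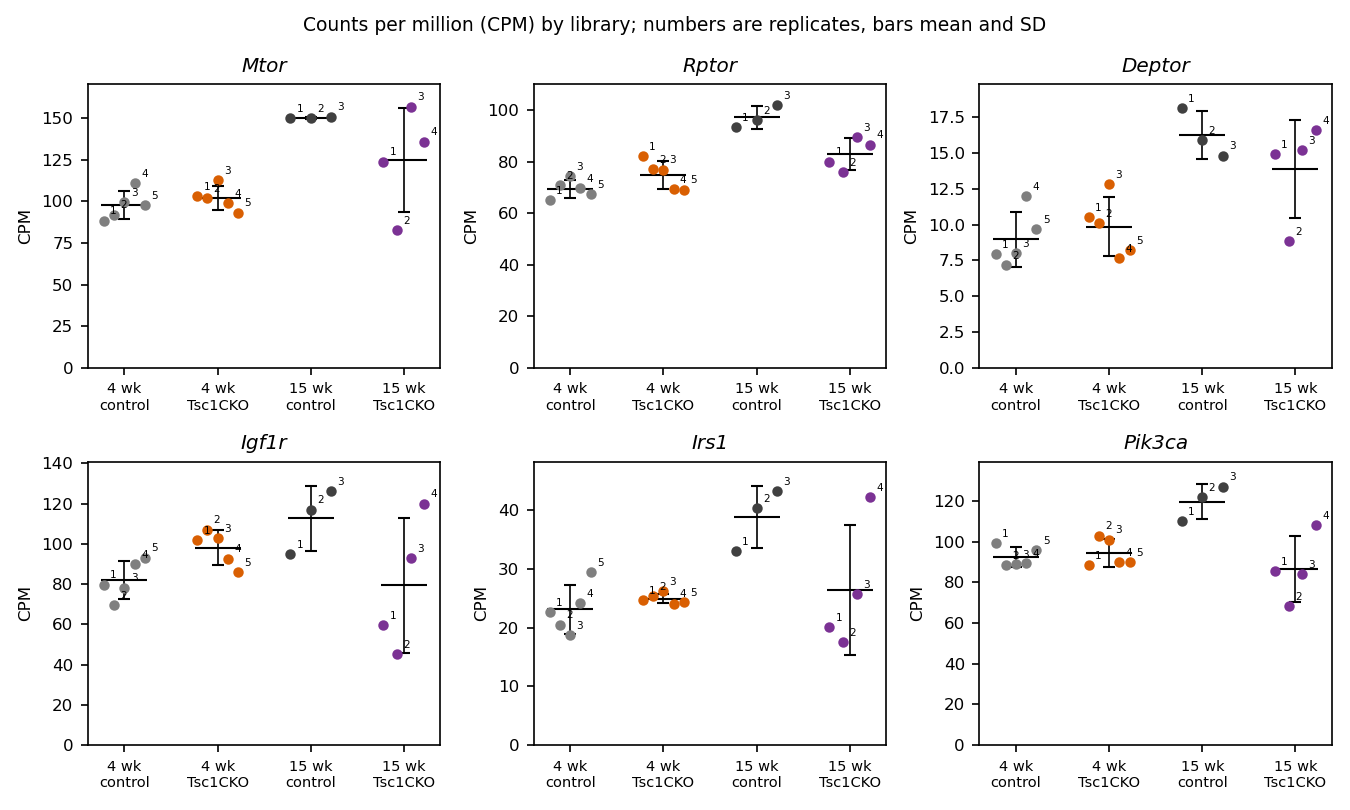
CPM per library (vertical axes, from 0) of Mtor, Rptor, Deptor, Igf1r, Irs1 and Pik3ca, which rose with age in controls, in the 4 groups (horizontal axes), with replicate numbers, a line at each group mean and bars of 1 SD. The 15-week controls of all 6 genes lie above all 4-week controls, as do those of 21.9% of all genes. The 15-week Tsc1CKO points of Igf1r spread from 45.2 to 120 CPM.

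**Figure D5:**
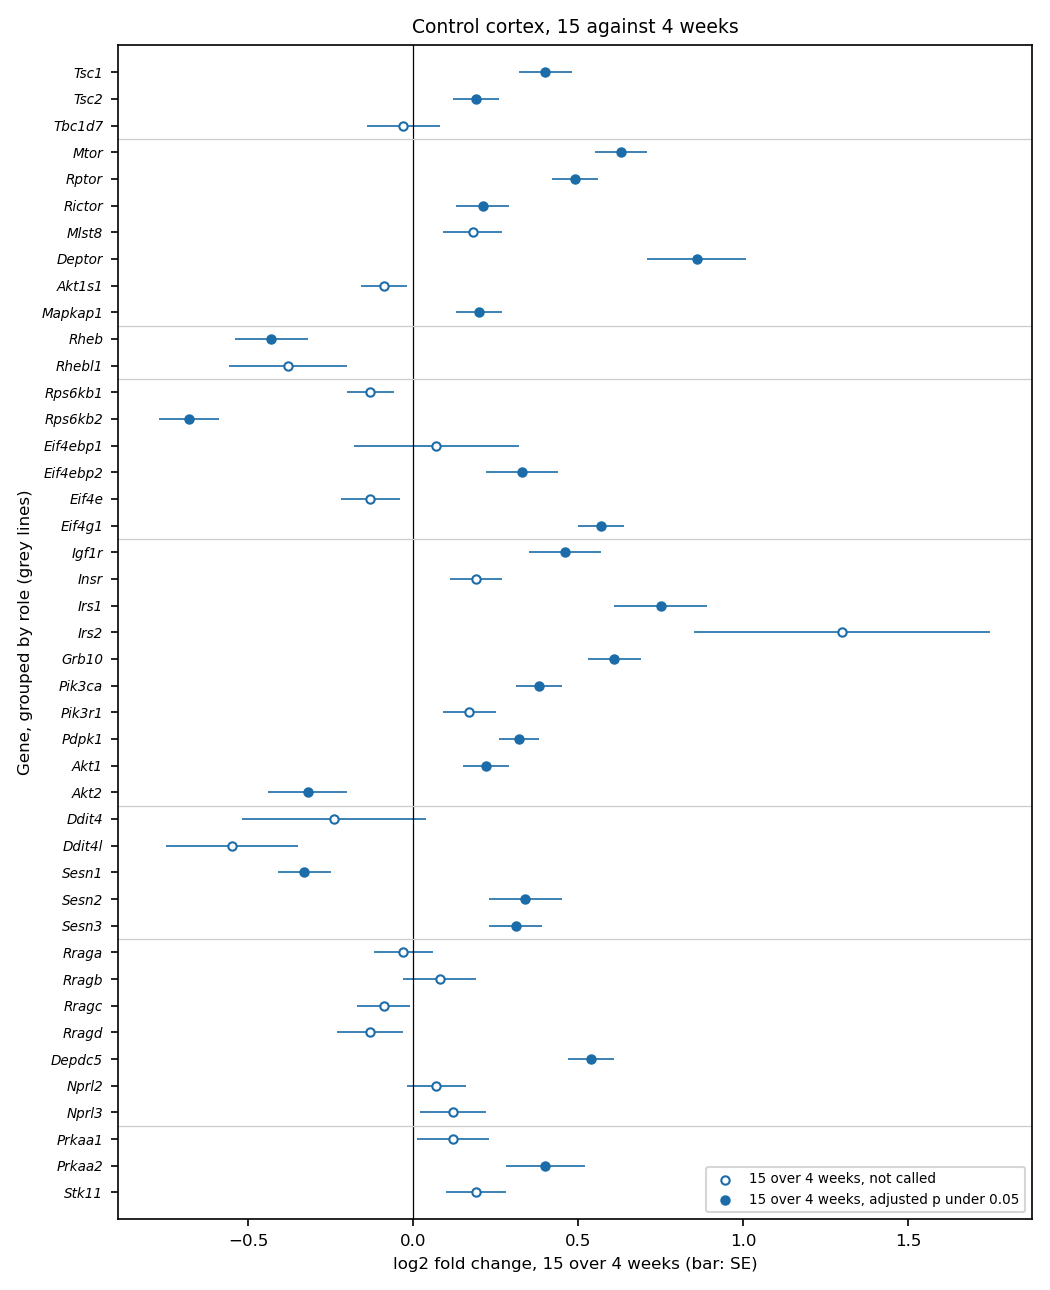
Log2 difference of 15-week against 4-week controls (horizontal axis) for the 43 genes (rows, by role), with bars of 1 SE each side and filled points for an adjusted p under 0.05. Filled points number 19 to the right of 0 and 4 to the left, with Deptor at 0.86 and Rps6kb2 at -0.68.

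Further genes of the pathway and its outputs, listed by function, were examined for genotype. At 4 weeks 0 genes of these 8 lists passed. At 15 weeks 3.36% of all genes rose, and a list with 1 gene called is near that share. Of the 20 genes tested, 1 in the lysosomal scaffold and amino acid sensing list rose, Gatsl3, the symbol here for the arginine sensor Castor1, a further inhibitor of mTOR complex 1. It was at 4.57 to 8.49 CPM in Tsc1CKO and 1.35 to 2.02 CPM in controls (log2 fold change 1.92 ± 0.28, SE, adjusted p = 0.013). Of 18 further PI3K, AKT and phosphatase genes 1 rose, Inpp4b, a phosphatase that opposes PI3K signalling (1.31 ± 0.30, adjusted p = 0.0493), with means of 15.3 ± 5.78 CPM (SD) over 4 mutants and 6.26 ± 0.34 CPM over 3 controls.

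Of 17 ATF4 target genes, 3 rose at 15 weeks and the median of the list was 0.49, where all genes had 0.02. ATF4 drives amino acid synthesis and stress genes and acts downstream of mTOR complex 1. The 3 were the mitochondrial folate enzyme Aldh1l2 (1.93 ± 0.28, adjusted p = 0.0134), Cth, which makes cysteine (1.25 ± 0.20, adjusted p = 0.0202), and the stress factor Nupr1 (2.15 ± 0.33, adjusted p = 0.0165). Of 15 SREBP and HIF target genes 1 rose, the glycolytic enzyme Hk2 (1.14 ± 0.21, adjusted p = 0.029), at 5.56 to 8.79 CPM against 2.81 to 3.77 CPM. Of 8 glucocorticoid responsive genes 2 rose, the metallothioneins Mt1 (1.96 ± 0.26, adjusted p = 0.00937) and Mt2 (2.13 ± 0.28, adjusted p = 0.00898), which astrocytes also express and metals also induce.

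The remaining lists had 0 genes past the test at 15 weeks. In the 8 insulin and IGF ligands and binding proteins the smallest p belonged to Igfbp7 (1.17 ± 0.30, adjusted p = 0.0618) and Igfbp2 (-0.79 ± 0.23, adjusted p = 0.0798). In 25 further mTOR complex and substrate genes it belonged to the autophagy factor Atg13 (-0.33 ± 0.13, adjusted p = 0.162) and to Lpin1 (0.32 ± 0.14, adjusted p = 0.194). In 9 AMPK and LKB1 partner genes it belonged to Camkk2, an upstream kinase of AMPK (-1.18 ± 0.38, adjusted p = 0.105), and the regulatory subunit Prkab2 (0.61 ± 0.21, adjusted p = 0.115).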

How the data were processed

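Poly-A libraries were read at 100 bases, base-called with bcl2fastq 1.8.4 and mapped to mm9 with Tophat 2.0.4, per the labels and the submitters' processing notes, from RNA with an integrity number of at least 9.8. How reads were counted, and with which gene models and strand setting, is not given in the sources used here; genes that overlap on either strand are uncertain. The deposited counts are whole reads per gene, not normalized. The header of that table stands one place off its columns, so columns were taken by number and checked against the authors' normalized values. The authors' deposited tables hold normalized signal per library, log2 fold changes, a score that is the DESeq2 statistic, and p-values. Per the labels, the authors set an FDR of 0.1 and kept genes below 0.05 in adjusted p-value.

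Genotype within each age, its difference between ages, and age in controls were tested with edgeR 4.0.16 (TMM, filterByExpr by group, robust quasi-likelihood, Benjamini-Hochberg over all genes at 0.05) in R 4.3.3. SE is the log2 fold change over the root of F. CPM were scaled by TMM over all 17 libraries and per kilobase of merged exon of GENCODE on mm9. Libraries of a group differed beyond sampling noise, with chi-square per degree of freedom of 6.81 to 91.3 over 29 pairs. Replicate numbers were not used as pairs. Alternatives were DESeq2 1.42.0, RLE factors, no filter, limma 3.58.1 voom with quality weights, a replicate block, all 17 libraries in one fit and each library left out. The fits were tested on simulated data.

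The 43 genes, the gene lists and the tests were chosen with earlier results of these data known. Named with full statistics are Tsc1 and Tsc2, genes past the threshold for genotype or its difference between ages, and up to 4 more per comparison by smallest p. From each further list, genes past the threshold for genotype or the 2 with the smallest p at 15 weeks are named. Irs1, Igf1r, Mtor, Rictor and other pathway genes given with values beyond that rule were chosen after their values were seen. Of the listed further genes, 1 (Kics2) had no match.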

Additional observations from a re-analysis of the deposited data

Results flagged for a closer look

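Every pathway gene was examined in each group of 4 or 5 libraries. The gap from the highest or lowest library to the next was set against the full range of the group. Of 129 such groups 7 had a library far from the others, where chance at 1 in 20 gives 6.45. In the 4-week controls, replicate 4 was highest for Mlst8 at 22.4 CPM (next 20.2 CPM) and for Rps6kb2 at 30.4 CPM (next 27.6 CPM), and lowest for Rragd at 191 CPM (next 225 CPM). Replicate 3 of the same group was lowest for Rps6kb1 at 63 CPM (next 69.4 CPM) and highest for Prkaa1 at 40.8 CPM (next 32.1 CPM), and replicate 1 was highest for Eif4e at 98.8 CPM (next 84.9 CPM). In the 15-week Tsc1CKO libraries, replicate 4 was lowest for Rragc at 77.8 CPM, where the next was 102 CPM and the controls were at 79.4 to 88.4 CPM.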

How the results depend on the processing

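For genotype at 4 weeks, where edgeR called 0 pathway genes, DESeq2 called 2 (4.07% of all genes) and the fit of all 17 libraries 1 (Sesn3). Leaving out a library gave 0 to 4, with 3.99% of all genes called in the fit with 4. At 15 weeks, where edgeR called 3, voom called 14 (34.5% of all genes), the fit of all 17 libraries 8 (22.6% of all genes) and leaving out a library gave 0 to 8. For the difference between ages, with 0 called, DESeq2 called 4 (6.89% of all genes) and voom 13 (25.5%). Leaving out a library gave 0 to 12 there, with 22.6% of all genes called in the fit with 12. For age in controls, with 23 called (41.8% of all genes), the fit of all 17 libraries called 14 (30.7% of all genes) and leaving out a library gave 16 to 23. RLE factors and no filter left the counts for genotype and its difference between ages at 0, 3 and 0. The cause of these shifts was not tested. Where no share of all genes is given, a count is not read as a result about the pathway genes. Named values under their alternatives gave 429 results, of which 368 kept direction and call, 32 gained a call, 24 lost it and 5 changed sign. Those 5 were the value of Tsc1 at 4 weeks, at -0.04 to 0.04 when a library was left out, and the difference between ages of Tsc2, at -0.14 to 0.03. Every pathway gene had 34 reads or more in every library.

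Same-numbered libraries of both genotypes deviated from their group means with correlations of -0.111 to 0.0735 at 4 weeks and -0.103 to 0.199 at 15 weeks. For number 1 at 15 weeks the value was 0.199, against -0.065 for the best other control. For every other number a control of another number correlated more closely. With so few libraries this does not show pairing and cannot exclude it. With the replicate block, 0 pathway genes were called at 4 weeks, 6 at 15 weeks (18.9% of all genes) and 10 for the difference between ages (17.5%). For age in controls the block matched libraries of 4 and 15 weeks by number, though the labels do not pair them. It gave 20, where the main fit called 23 and 41.8% of all genes. The share of all genes called with the block is not given here for age, so the count of 20 is not read further. The block takes out a library whose number has no partner, as with Tsc1CKO replicate 4 at 15 weeks.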
